A study of Mus musculus with 18 samples.

Results

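The sites described here are the 1286 genomic regions at which the histone variant H3.3 differed between susceptible, re-exposed mice and control mice in the authors' deposited table. They are all the sites of that comparison, out of 2300 sites in the deposited tables of differential regions. The remaining 1014 sites compare acutely stressed mice with controls. The assay was chromatin immunoprecipitation of crosslinked tissue followed by sequencing (ChIP-seq), with an H3.3 precipitation, in the nucleus accumbens, a reward region of the ventral striatum. All mice were of the C57Bl/6J strain, and no transgene or mutation is given in the labels. Susceptible mice had lived through chronic social defeat, in which a mouse meets an aggressor repeatedly, and were called susceptible from a social interaction test 48 h after the defeat. On day 28 after the last defeat they met an aggressor for 5 min, spent 55 min housed next to one and were then killed. Control mice had no defeat and were taken from the home cage. Each library pooled the nucleus accumbens of both sides from 5 animals, and the labels call the replicates biological. These libraries include no susceptible mice left without the renewed stress, so the re-exposure cannot be told apart from the earlier defeat or from the selection as susceptible. ChIP sites carry no expression level, and the identity of the dissected tissue was not tested.

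H3.3 differs from the replication-dependent H3 proteins at a few residues and can be placed into chromatin at any stage of the cell cycle. In neurons, which no longer divide, it is the form of H3 that replaces lost or evicted histones. The HIRA complex deposits H3.3 mainly at active promoters, enhancers and transcribed genes, and the ATRX and DAXX pair deposits it at telomeres and other repeats.

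H3.3 was lower in susceptible mice at 1255 of the 1286 sites and higher at 31. The sites were listed because of this contrast, with a p below 0.0001 in the authors' test, so the differences described below are the property by which the sites were chosen and are given without a test of the list. Each site has a normalised read count in 3 susceptible libraries and in 2 control libraries. The labels describe 3 H3.3 libraries per condition. The table does not name them, so the libraries are numbered by their position in it. A single read was worth 1.63, 0.828 and 1.47 normalised counts in susceptible libraries 1, 2 and 3, against 0.918 and 0.534 in control libraries 1 and 2. By these steps the second library of each group was the deepest. A two-sided exact binomial test on the reads, called the exact counting test here, covers counting error only and takes the same libraries as the listing. At the threshold of 0.0001 it called 1063 of the 1286 sites lower (82.7%) and 22 higher (1.71%). These shares follow from the listing, which used the same reads, and nothing is read from them. In bulk tissue, fewer cells of a type and less H3.3 per cell cannot be told apart.

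The promoters where a lower site covered the start of a gene are the sites most directly tied to a gene, and 6 of them are printed here. They were taken from RefSeq (GRCm38.p6, the mm10 coordinates), each running 5′ to 3′ on the strand of the gene over 250 bases before and 50 bases after the start. The 6 windows are Gsn (chr2:35256109-35256408), Ahcyl2 (chr6:29853491-29853790), Ccdc59 (chr10:105841229-105841528), Cetn3 (chr13:81782997-81783296), Ing3 (chr6:21949321-21949620) and Ttc37 (chr13:76098484-76098783), all on the plus strand. Capitals mark the bases that lie inside the listed H3.3 site.
Gsn: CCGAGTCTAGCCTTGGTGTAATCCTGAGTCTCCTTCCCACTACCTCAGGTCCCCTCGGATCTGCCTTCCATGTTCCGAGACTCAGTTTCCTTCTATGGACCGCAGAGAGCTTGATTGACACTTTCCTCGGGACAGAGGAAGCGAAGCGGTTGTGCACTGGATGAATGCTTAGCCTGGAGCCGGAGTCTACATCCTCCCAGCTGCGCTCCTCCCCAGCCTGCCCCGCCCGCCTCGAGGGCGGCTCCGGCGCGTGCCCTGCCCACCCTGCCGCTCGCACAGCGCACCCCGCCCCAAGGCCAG
Ahcyl2: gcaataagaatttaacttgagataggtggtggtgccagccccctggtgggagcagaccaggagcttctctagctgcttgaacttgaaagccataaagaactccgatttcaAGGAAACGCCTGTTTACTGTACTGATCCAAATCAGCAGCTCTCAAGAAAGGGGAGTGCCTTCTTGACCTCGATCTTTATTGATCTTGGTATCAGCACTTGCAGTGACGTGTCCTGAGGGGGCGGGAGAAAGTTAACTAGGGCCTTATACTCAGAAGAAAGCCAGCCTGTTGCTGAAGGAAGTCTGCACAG
Ccdc59: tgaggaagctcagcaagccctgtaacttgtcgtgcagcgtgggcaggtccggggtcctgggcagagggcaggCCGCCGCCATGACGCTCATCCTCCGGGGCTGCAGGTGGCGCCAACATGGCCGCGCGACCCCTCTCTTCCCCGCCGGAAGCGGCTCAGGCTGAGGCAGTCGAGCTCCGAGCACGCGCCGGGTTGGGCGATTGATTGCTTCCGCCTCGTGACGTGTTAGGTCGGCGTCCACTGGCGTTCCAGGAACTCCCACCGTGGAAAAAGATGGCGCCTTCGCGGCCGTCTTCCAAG
Cetn3: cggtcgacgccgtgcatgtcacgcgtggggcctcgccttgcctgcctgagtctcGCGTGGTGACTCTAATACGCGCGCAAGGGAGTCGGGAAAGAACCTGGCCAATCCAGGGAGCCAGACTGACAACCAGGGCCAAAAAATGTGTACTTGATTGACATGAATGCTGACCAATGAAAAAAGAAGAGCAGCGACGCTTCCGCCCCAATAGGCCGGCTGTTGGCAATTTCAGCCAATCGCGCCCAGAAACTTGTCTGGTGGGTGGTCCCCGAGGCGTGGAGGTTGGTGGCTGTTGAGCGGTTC
Ing3: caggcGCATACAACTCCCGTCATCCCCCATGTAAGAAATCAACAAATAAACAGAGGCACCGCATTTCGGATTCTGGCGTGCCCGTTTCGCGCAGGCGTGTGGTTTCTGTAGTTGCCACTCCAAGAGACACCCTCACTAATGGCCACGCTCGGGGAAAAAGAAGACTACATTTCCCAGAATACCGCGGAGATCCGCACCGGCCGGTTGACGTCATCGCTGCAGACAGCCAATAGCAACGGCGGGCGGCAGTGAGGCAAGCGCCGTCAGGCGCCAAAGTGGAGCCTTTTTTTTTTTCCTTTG
Ttc37: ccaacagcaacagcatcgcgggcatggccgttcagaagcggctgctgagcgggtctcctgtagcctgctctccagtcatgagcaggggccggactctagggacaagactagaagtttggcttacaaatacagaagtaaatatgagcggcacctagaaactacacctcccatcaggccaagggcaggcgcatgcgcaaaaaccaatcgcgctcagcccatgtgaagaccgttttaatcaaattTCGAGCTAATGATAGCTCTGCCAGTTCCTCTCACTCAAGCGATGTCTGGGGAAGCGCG
The whole Gsn window lay inside its site, and 295 bases of the Ing3 window did. The sites of Cetn3, Ccdc59 and Ahcyl2 covered 246, 228 and 190 bases of the windows. The Ttc37 site covered 58 bases, all at the gene's end of the window, so most of that site extended into the gene. The same site covered 185 bases of the promoter window of Arsk, which runs the other way, so it cannot be assigned to only 1 of these genes.

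These promoters were read for 6 short motifs on both strands. The GC box GGGCGG was present in 4 of the 6, those of Gsn, Ahcyl2, Cetn3 and Ing3, against 35.7% of all 32851 RefSeq windows. The CCAAT box was present in 3, those of Cetn3, Ing3 and Ttc37, against 37.4% of all windows. The ETS motif CCGGAAG occurred in Ccdc59 (8.86% of all windows), and the cAMP response element TGACGTCA in Ing3 (1.79%). Neither the TATA box TATAAA nor the E-box CACGTG was found in the 6, against 13.6% and 7.15% of all windows. A match is a description of the letters only. Windows on chromosome 18 were not used. Of the 1213 lower sites elsewhere, 20 lay over a RefSeq promoter window and 12 of these over a start. Over these windows lay 0 of the higher sites. The 24 windows touched by a lower site had a median of 14.5 CpG dinucleotides (quartiles 5 and 24.2), and all windows had a median of 7 (quartiles 3 and 20). Every lower site held many reads in both control libraries, while the full set of windows had no read requirement. Some of the 24 windows also share a site. The motif and CpG values are therefore not read as a trait of the lower sites.

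The authors' annotation placed 77 of the lower sites (6.14%) at promoters and none of the higher sites. Of these, 13 were proximal promoters, 19 lay within the 1 kb class and 45 within the 3 kb class. The 77 sites had a median group mean of 2.67 normalised counts in susceptible mice, against 13.2 in controls. Over the gene body sites these medians were 2.19 and 12.0, and the difference between the kinds of site was not tested.

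The proximal promoter with the smallest p was that of Gsn, which encodes gelsolin, a protein that severs and caps actin filaments. Its site held 3.26, 4.14 and 2.94 normalised counts in the susceptible libraries, against 20.19 and 16.55 in the control libraries. All susceptible libraries lay far below both controls, with means of 3.45 ± 0.621 (SD, n = 3) and 18.4 ± 2.57 (SD, n = 2). The reads behind them were 9 in susceptible mice and 53 in controls, a pooled fold of 4.98 lower with an exact 95% counting interval of 2.43 to 11.5. This interval, like those below, does not allow for the choice of the site by the same reads or for differences between libraries. Every susceptible library lay below every control library at all 1255 lower sites, which largely follows from the listing. Such separation is not read as support at Gsn or at the sites below. The authors' deposited table gives a log2 fold change of -2.42 with p = 2.06e-07. Its enrichment ratio ran the other way, 0.66 in susceptible mice against 0.42 in controls, and the denominator of that ratio is not stated. At Ccdc59 (0.54 against 0.39) and Pkn2 (0.73 against 0.49) it ran the other way too, as it did at Cetn3, where it was infinite in susceptible mice against 0.54 in controls. It was smaller in susceptible mice, in the direction of the reads, at 71.7% of all lower sites and at 74.0% of those at promoters. In controls the ratio was infinite at 60.3% of all lower sites and at 46.8% of those at promoters. Any finite susceptible ratio counts as smaller there, so these shares are not read as agreement with the reads.

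Ccdc59, also known as TAP26, encodes a cofactor of thyroid transcription factor 1 that also has a part in ribosome assembly. Its site (chr10:105841301-105841675) was centred 9 bp inside the gene, and distances below likewise run between the centre of a site and the start. The susceptible libraries held 1.63, 2.48 and 4.4 normalised counts, against 13.76 and 16.02 in the control libraries. The highest susceptible library stayed below the lowest control library, as at every lower site. The pooled reads were 7 and 45, a fold of 5.43 lower with an exact 95% counting interval of 2.43 to 14.3. The same site also covered the start of the divergent gene Mettl25 and all 300 bases of its RefSeq promoter window. It therefore cannot be assigned to Ccdc59 or Mettl25 alone.

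Ahcyl2 encodes a protein of the adenosylhomocysteinase family. Its site (chr6:29853601-29854025) was annotated by the authors as gene body, 85370 bp from the start they used, and it lay over another start of the gene in RefSeq. The counts there were 3.26, 3.31 and 5.87 in the susceptible libraries, against 15.6 and 19.22 in the control libraries. The groups did not overlap.

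Cetn3 encodes centrin 3, a calcium-binding protein of centrioles. Its promoter site held 1.63, 2.48 and 1.47 normalised counts in the susceptible libraries, against 12.85 and 11.21 in the control libraries. Ing3 encodes a subunit of the NuA4 histone acetyltransferase that reads trimethylated lysine 4 of histone H3. Its promoter site held 3.26, 0 and 4.4 normalised counts in the susceptible libraries, against 18.35 and 10.14 in the control libraries. The control libraries differed more at Ing3 than at Cetn3, with SDs of 5.81 and 1.16 normalised counts (n = 2 each), and the groups were apart at both. Ttc37, a subunit of the SKI complex that feeds RNA to the exosome, had 4.88, 1.66 and 1.47 normalised counts in the susceptible libraries, against 12.85 and 10.68 in the control libraries. Its first susceptible library was the highest of the 3.

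Usp40, a deubiquitinase, had 0, 1.66 and 1.47 normalised counts in the susceptible libraries, against 11.01 and 9.61 in the control libraries. Rab40b, a small GTPase that recruits a cullin ubiquitin ligase, had 3.26, 3.31 and 1.47, against 12.85 and 12.81 in the control libraries. At both promoters no susceptible library reached a control library. Nap1l4, a histone chaperone for H2A and H2B, had the highest single susceptible value among the proximal promoters described here, with 8.14, 4.14 and 1.47 normalised counts in the susceptible libraries, against 16.52 and 14.41 in the control libraries.

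Another 4 proximal promoter sites were those of the microRNA gene Mir3086, the 14-3-3 gene Ywhab, the mitochondrial ribosomal protein gene Mrpl52 and the prolyl isomerase gene Fkbp14. Their susceptible means ran between 1.86 and 3.43 normalised counts and their control means between 10.8 and 15.3. In RefSeq the Mir3086 site also lay over the protein-coding gene Hspa12a. Mir3086, Ywhab and Fkbp14 lay at the edge of what the reads resolve. A two-sided exact counting test on their reads gave p = 0.000103, 0.000125 and 0.000105, just above the listing threshold of 0.0001, while the authors' deposited table lists all 3 below it.

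**Figure D1:**
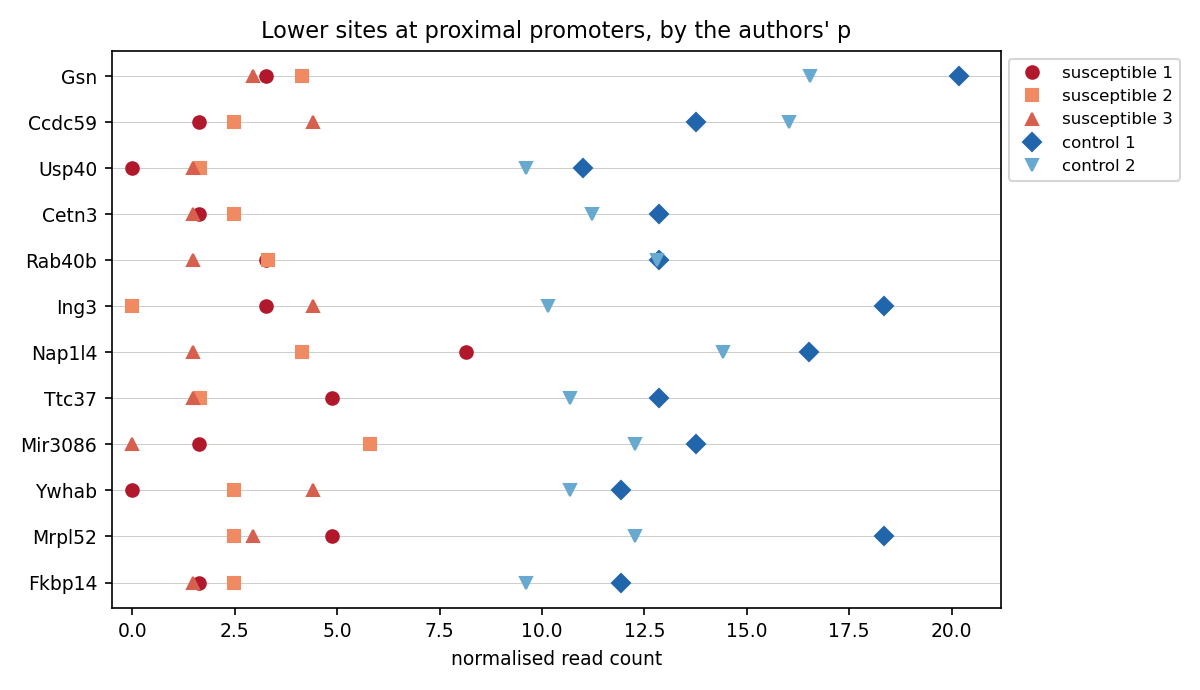
Normalised read count (horizontal axis) in each of the 3 susceptible and 2 control libraries at 12 of the 13 lower sites annotated as proximal promoters, 1 gene per line in order of the authors' p. The susceptible symbols lie between 0 and 8.14 and the control symbols between 9.61 and 20.19. The groups are apart on every line, as at all lower sites, which largely follows from the listing.

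Among promoters farther from the start, the smallest p belonged to Pkn2, a protein kinase gene. The site was centred 0.709 kb upstream of the start and held 3.26, 0 and 4.4 normalised counts in the susceptible libraries, against 16.52 and 13.88 in the control libraries. In RefSeq this site also touches the promoter window of the divergent transcript 9530052C20Rik. Chsy3, a chondroitin sulfate synthase that builds glycan chains of the extracellular matrix, had 1.63, 4.97 and 4.4 normalised counts in the susceptible libraries, against 17.43 and 18.15 in the control libraries. Nudt12, a peroxisomal hydrolase of NADH, had 8.14, 3.31 and 4.4, against 19.27 and 18.15 in the control libraries. These were among the deepest control signals at promoters, and both control libraries were nearly equal there. Smcr8, the partner of C9orf72 in autophagy, had 1.63, 4.14 and 4.4 normalised counts in the susceptible libraries, against 15.6 and 16.02 in the control libraries. The other promoters with the smallest p were those of Gm5129, 4930556N13Rik, the leucine-rich repeat gene Lrrc36 and the olfactory receptor gene Olfr1410. Their susceptible means ran between 0.82 and 2.15 normalised counts and their control means between 9.85 and 14.9. In RefSeq the Gm5129 site lay over the protein-coding gene Dnajb6, and the 4930556N13Rik site also lay over Akap1.

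At the lower sites as a whole, the median normalised counts were 1.63, 2.48 and 1.47 in the susceptible libraries, against 12.85 and 11.75 in the control libraries. At each of the 1255 sites every susceptible library lay below every control library, with a median gap of 7.66 normalised counts (range 3.58 to 14.55) between the highest susceptible and the lowest control value. The control values had a sharp lower edge, since no lower site had fewer than 11 reads in control library 1 or 18 reads in control library 2. With sites listed by this contrast and above this edge, the separation largely follows from the listing, here and at single sites. It is not read as agreement between libraries. The median lower site held 6 reads over the 3 susceptible libraries, against 35 over the 2 control libraries. By susceptible reads, 109 sites (8.69%) held 1 to 3, 991 (79.0%) held 4 to 9 and 154 (12.3%) held 10 or more. Sites with 0 reads numbered 291, 36 and 273 in susceptible libraries 1, 2 and 3 (23.2%, 2.87% and 21.8%). The second library, the deepest of the 3, thus had reads at most of the sites where another had none.

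With 3 against 2 libraries, a two-sided exact permutation test of 1 site cannot go below p = 0.2, so none is given.

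**Figure D2:**
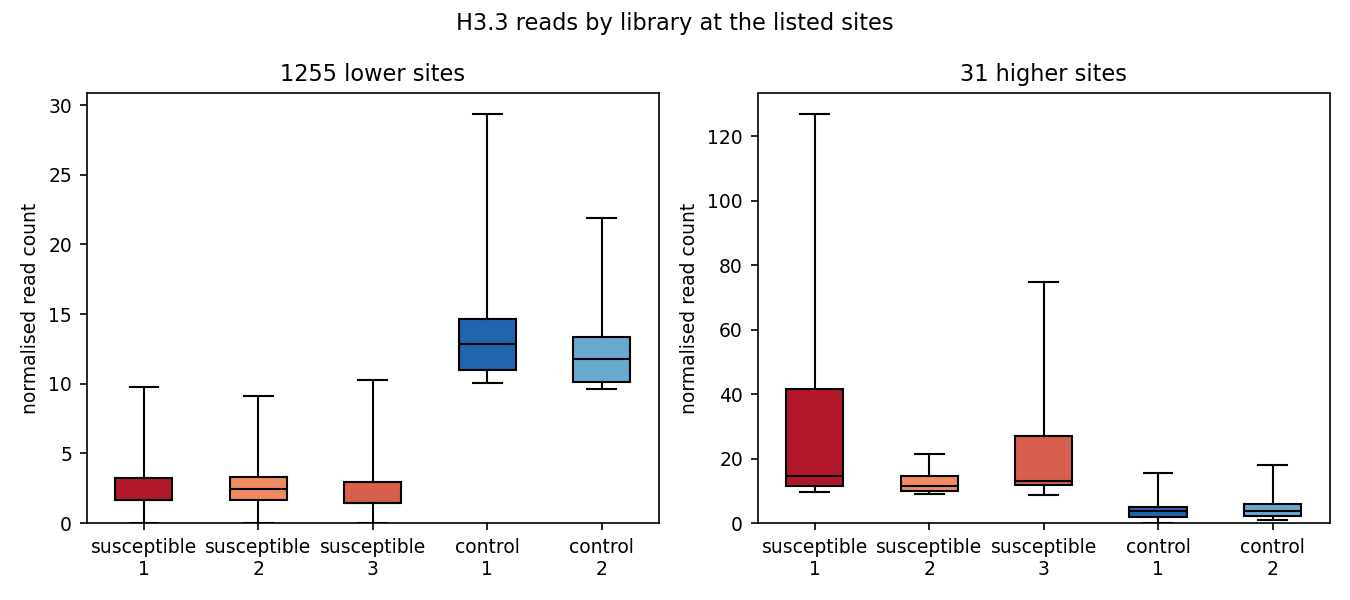
Normalised read counts (vertical axis) in each library at the 1255 lower sites (left) and the 31 higher sites (right), with susceptible libraries left of control libraries. Boxes span the quartiles, lines inside them are medians and whiskers reach the lowest and highest site. At lower sites all control values are 9.61 or more, and at higher sites susceptible libraries 1 and 3 reach far above library 2.

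Only 1 lower site had no read in any susceptible library. It was assigned to the microRNA gene Mir3473a#3 (chr15:100118951-100119200) and lies inside the gene Dip2b in RefSeq. It held 0, 0 and 0 normalised counts in the susceptible libraries, against 10.09 and 9.61 in the control libraries, from 29 control reads. Against a floor of 3 reads over the group the control count was 8.17 times as high, and the exact 95% counting interval of that fold began at 6.23. The number sign in the name marks a copy of a gene with several near-identical copies, so the assignment is uncertain.

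By p, the first lower site with a gene was that of Vwf, which encodes an endothelial factor of blood clotting. In RefSeq this site lay over no gene, 0.422 kb from Vwf. The susceptible libraries held 0, 0.83 and 0 normalised counts there, against 12.85 and 10.14 in the control libraries. Cmtm4, which encodes a membrane protein that stabilises the immune checkpoint ligand PD-L1, had 0, 1.66 and 0, against 11.93 and 11.21 in the control libraries. Cdk14, a cyclin-dependent kinase linked to Wnt signalling at the membrane, had 0, 0.83 and 0, against 10.09 and 9.61 in the control libraries. At all 3 sites the only susceptible reads were in library 2, the deepest. Esr2, the gene of oestrogen receptor beta, was the tenth genic site by p. It had 0, 1.66 and 0 normalised counts in the susceptible libraries, against 11.93 and 10.14 in the control libraries, and the authors' deposited table gives it a log2 fold change of -4.32. Folds of this size rest on 1 or 2 susceptible reads, and at Cmtm4 the exact 95% counting interval of the 14.4-fold lower count ran between 3.68 and 123.

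The strongest control signals among lower sites were in the gene body of Copb1 and at 2 sites outside genes. Copb1 encodes the beta subunit of the COPI coat, which carries cargo from the Golgi to the endoplasmic reticulum. Its site (chr7:114236626-114237100) held 4.88, 7.45 and 2.94 normalised counts in the susceptible libraries, against 29.36 and 18.69 in the control libraries. The pooled fold was 4.04 lower (exact 95% counting interval 2.25 to 7.79), and the control libraries differed by more here than at the sites outside genes. A gene desert site (chr7:61619026-61619600) held 8.14, 8.28 and 4.4 normalised counts in the susceptible libraries, against 24.77 and 21.89 in the control libraries. An intergenic site (chr16:65961001-65961525) held 4.88, 4.97 and 7.34, against 22.94 and 21.89 in the control libraries.

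Gene bodies held 616 of the lower sites (49.1%), other intergenic regions 362 (28.8%) and gene deserts 197 (15.7%). Pericentromeric and subtelomeric sites numbered 1 and 2, with susceptible means between 3.88 and 5.02 normalised counts and control means between 15.2 and 17.1. Gene body sites lay at a median of 66.61 kb from the start of their gene, between 3.11 kb and 1969 kb, the last in Macrod2. In bins of that distance, 57 sites lay under 10 kb, 207 between 10 and 50 kb, 112 between 50 and 100 kb, 194 between 100 and 500 kb, 34 between 500 kb and 1 Mb and 12 beyond. From the authors' deposited table, the median log2 fold change was -2.43 under 10 kb, -2.37 between 10 and 50 kb and -2.52 beyond 1 Mb. The listing by p sets the range of these values, so they do not compare the distance classes. Which of these sites are exonic or intronic was not analysed here.

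Of 20665 protein-coding genes of chromosomes 1 to 19 in RefSeq, 578 (2.8%) held a lower site and 18 (0.0871%) a higher site. The share with a lower site was larger in longer genes. It was 0.191% in genes under 10 kb, 1.26% between 10 and 50 kb, 4.06% between 50 and 100 kb, 10.1% between 100 and 300 kb, 30.1% between 300 kb and 1 Mb and 63.6% in the 55 genes over 1 Mb. Per length of gene the difference was much smaller, with 0.454 lower sites per Mb in the shortest class and 0.737 in the longest, against 0.65 over all genes. Genes with a lower site had a median length of 149 kb, genes with a higher site 117 kb and all genes 17.5 kb. Counts of genes with a site therefore follow gene length closely, which applies to each gene group given next.

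**Figure D3:**
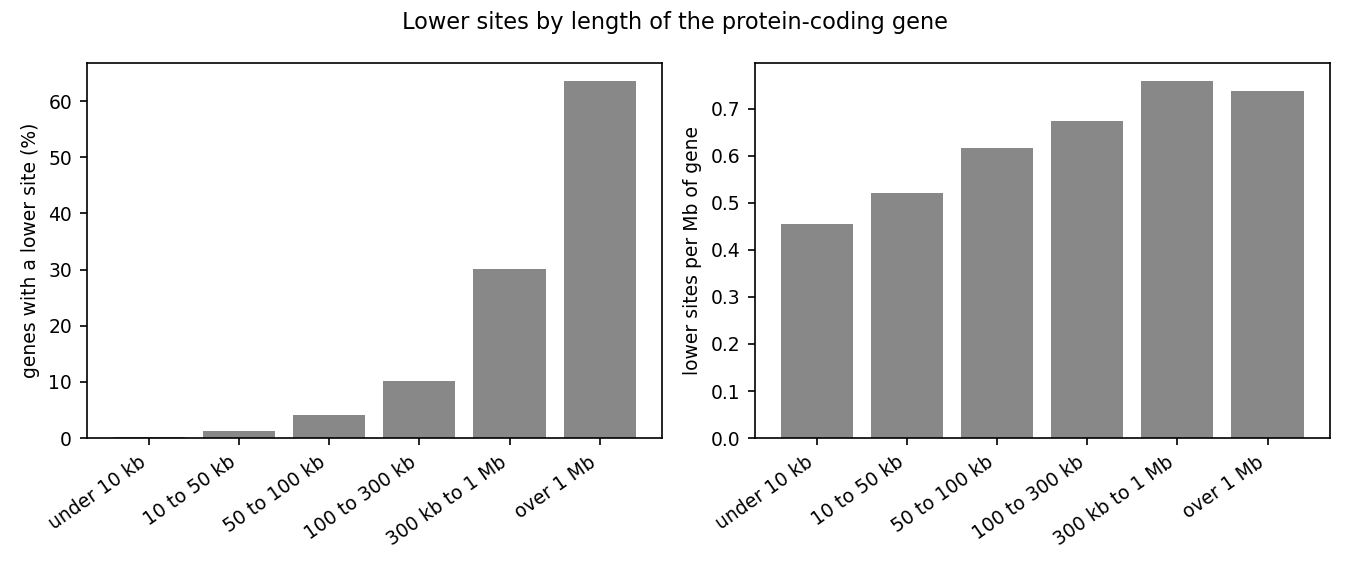
Protein-coding genes grouped by length in RefSeq (horizontal axis), with the share of genes holding a lower site in percent (left) and the number of lower sites per Mb of gene (right). The share runs between 0.191% and 63.6%, and the number per Mb between 0.454 and 0.759.

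Several gene groups with roles in neuronal structure and signalling were counted. The groups were chosen with earlier results of these data known. Their shares and numbers per Mb, here and in the paragraphs that follow, are therefore descriptions only. Of the genes for actin and microtubule proteins, 7 of 52 held a lower site (13.5%, against 2.8% of all protein-coding genes) and 1 a higher site. These genes were long, with a median of 174 kb, and carried 0.759 lower sites per Mb, against 0.65 over all genes. Besides Gsn these included Dst, a linker of cytoskeletal filaments, with 1.63, 4.14 and 2.94 normalised counts in the susceptible libraries, against 14.68 and 13.88 in the control libraries. Myo3b, an unconventional myosin, had 0, 2.48 and 1.47, against 11.01 and 10.14 in the control libraries. Ank3, which encodes ankyrin G, the organiser of the axon initial segment, held a site in each direction and is described below.

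Enzymes of cyclic nucleotide and calcium signalling, through which dopamine receptors act in striatal neurons, held lower sites in 12 of 59 genes. The share was 20.3%, against 2.8% of all protein-coding genes, and 0 genes held a higher site. Per Mb there were 0.688 lower sites, against 0.65 over all genes. Plcb1, a phospholipase C downstream of Gq-coupled receptors, had 4.88, 2.48 and 1.47 normalised counts in the susceptible libraries, against 14.68 and 12.81 in the control libraries. Adcy3, an adenylyl cyclase of neuronal cilia, had 0, 4.14 and 0, against 11.01 and 11.75 in the control libraries. Prkce, an isoform of protein kinase C, had 3.26, 0.83 and 4.4, against 11.93 and 11.75 in the control libraries. No susceptible library reached a control library at these 3 genes or at Ryr3, a calcium release channel. The group also included Adcy8, Pde1c, Pde4d, Pde7a, Akap6, Prkch, Prkar2b and Rasgrf2.

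RNA-binding and splicing regulators held lower sites in 6 of 47 genes (12.8%, against 2.8% of all protein-coding genes). This came to 0.913 per Mb, against 0.65 over all genes. Adarb2, a brain-enriched relative of the RNA-editing deaminases, had 1.63, 0.83 and 2.94 normalised counts in the susceptible libraries, against 14.68 and 11.75 in the control libraries. Nova1, a neuronal splicing factor, had its site 1.95 kb upstream of the start, with 1.63, 4.14 and 2.94 normalised counts in the susceptible libraries, against 14.68 and 11.75 in the control libraries. The groups were apart at both, and the exact counting test at Nova1 gave p = 0.000103, above the listing threshold. Rbfox1, Rbms3, Ptbp2 and Cpeb3 were the others.

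Ubiquitin ligases and related proteins held lower sites in 8 of 48 genes (16.7%, against 2.8% of all protein-coding genes). This came to 0.912 per Mb, against 0.65 over all genes. Itch, a HECT-type ligase of immune and Notch signalling, had 1.63, 0.83 and 0 normalised counts in the susceptible libraries, against 11.01 and 10.14 in the control libraries. Park2, the parkin gene of mitochondrial quality control, had 0, 3.31 and 0, against 11.01 and 11.75 in the control libraries. Trim33, a ligase of TGF-beta signalling, had 3.26, 4.97 and 1.47, against 15.6 and 13.88 in the control libraries. The group was rounded out by Klhl1, Herc1, Herc2, Fbxl17 and Smurf1, and 0 of its genes held a higher site.

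Genes of the extracellular matrix and its proteoglycans held lower sites in 12 of 63 genes and higher sites in 0. The share with a lower site was 19%, against 2.8% of all protein-coding genes. Per Mb there were 0.784 lower sites, against 0.65 over all genes. Itgbl1, an integrin beta-like secreted protein, had 1.63, 0.83 and 1.47 normalised counts in the susceptible libraries, against 13.76 and 11.21 in the control libraries. Ext1, which polymerises heparan sulfate, had 3.26, 3.31 and 0, against 15.6 and 12.28 in the control libraries. Col12a1, a fibril-associated collagen, had 4.88, 4.97 and 1.47, against 18.35 and 15.48 in the control libraries. The heparan sulfate sulfotransferase genes Hs6st3 and Hs3st4 and the tenascin R gene Tnr, a component of perineuronal nets, also held lower sites.

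Transcription factors of a list drawn up as neurodevelopmental held lower sites in 12 of 79 genes and a higher site in 1, Zeb1. The share with a lower site was 15.2%, against 2.8% of all protein-coding genes. Per Mb there were 0.708 lower sites, against 0.65 over all genes. Fli1, an ETS factor of endothelial and blood cells, had 3.26, 0.83 and 0 normalised counts in the susceptible libraries, against 12.85 and 9.61 in the control libraries. Pbx3, a partner of Hox and Meis proteins, had 1.63, 2.48 and 0, against 10.09 and 11.75 in the control libraries. Ebf1, a factor of striatal projection neuron development, had 6.51, 0.83 and 1.47, against 12.85 and 11.75 in the control libraries. The first susceptible library stood highest at Ebf1 and Fli1, and it stayed below both controls. Meis2, Foxp1, Mef2c, Nfia, Zeb2, Tshz2, Tshz3, Nr3c1 and Nr3c2 were the other members with a lower site.

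Genes of insulin, mTOR and growth signalling held lower sites in 5 of 50 members (10%, against 2.8% of all protein-coding genes). This came to 0.727 per Mb, against 0.65 over all genes. Map3k1, a kinase upstream of JNK, had 0, 2.48 and 5.87 normalised counts in the susceptible libraries, against 14.68 and 12.28 in the control libraries. Cdk14, Map2k5 and Nf1 were further members with a lower site. Solute carriers held lower sites in 5 of 61 members (8.2%, against 2.8% of all protein-coding genes) and a higher site in 1, Slc36a1. They carried 0.446 lower sites per Mb, against 0.65 over all genes. Lower sites lay in, among others, Slc35f1, Slc24a2, Slc4a4, a bicarbonate cotransporter of astrocytes, and Slc8a1, a sodium-calcium exchanger. Their susceptible means ran between 1.36 and 2.35 normalised counts at the lower sites, and the control means between 10.1 and 12.8.

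Signalling genes of the Wnt, TGF-beta, Hedgehog and Notch pathways held lower sites in 2 of 63 members and a higher site in 1. The lower share of 3.17% is near the 2.8% of all protein-coding genes, and the 2 sites came to 0.32 per Mb. Lef1, a transcription factor of the Wnt pathway, had 3.26, 2.48 and 1.47 normalised counts in the susceptible libraries, against 12.85 and 11.21 in the control libraries, at a site 1.21 kb upstream of its start. Notch1, a receptor, had 0, 1.66 and 2.94, against 14.68 and 9.61 in the control libraries. At Axin1, a scaffold of the complex that destroys beta-catenin, the order was reversed, with 13.02, 9.93 and 8.81 in the susceptible libraries, against 3.67 and 1.07 in the control libraries. No difference between these gene groups was tested.

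A group of very long genes at common fragile sites held a lower site in 15 of 34 members (44.1%, against 2.8% of all protein-coding genes). The group had a median gene length of 1010 kb and carried 0.648 lower sites per Mb, against 0.65 over all genes. A higher site lay in 2 members, Ank3 and Auts2. Csmd1, an inhibitor of complement, had 6.51, 3.31 and 7.34 normalised counts in the susceptible libraries, against 19.27 and 19.75 in the control libraries. At the other end, 0 of 19 genes for H3.3 itself, its chaperones and linked remodellers and 0 of 47 genes for oxidative phosphorylation subunits held a site. Those groups spanned only 0.927 and 0.599 Mb in all, with median gene lengths of 32.2 and 7.51 kb.

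Repeated sites marked a smaller set of genes. Of the 619 genes with a lower site, 63 held 2 or more, 55 of them exactly 2. Lrp1b, a receptor of the LDL receptor family, held 5. All lay between 1178 and 1737 kb from the start, in a gene of 2058 kb. At these 5 sites the susceptible means ran between 1.86 and 4.80 normalised counts and the control means between 10.6 and 15.7. Rbfox1, a neuronal splicing regulator, held 4, and those at 513, 552 and 558 kb lay close together in a gene of 1528 kb. The pair closest to each other was 6101 bp apart, with counts of 3.26, 1.66 and 2.94 in the susceptible libraries, against 13.76 and 12.81 in the control libraries, at the first of them, and 3.26, 2.48 and 2.94, against 11.01 and 12.81 in the control libraries, at the second.

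Nptn, which encodes neuroplastin, an adhesion protein and subunit of plasma membrane calcium pumps, had 3 lower sites in 70.64 kb, the shortest of the 8 genes with 3 or more. A pair of them lay 926 bp apart near the end of the gene, the smallest gap between any listed lower sites. They held 3.26, 1.66 and 2.94 normalised counts in the susceptible libraries, against 11.93 and 12.28 in the control libraries, and 0, 2.48 and 1.47, against 10.09 and 9.61 in the control libraries. Whether neighbours so close share fragments was not tested. The third Nptn site lay 33.035 kb from the start. Nrxn3, a presynaptic neurexin, held 3 lower sites, as did Cacna1c, the L-type calcium channel gene, the protocadherin genes Pcdh9 and Pcdh15 and St6galnac3, a sialyltransferase. Their susceptible means ran between 1.10 and 3.77 normalised counts and their control means between 9.85 and 14.8. One site in each of these 5 genes and in Lrp1b, Rbfox1 and Nptn missed the threshold of 0.0001 in the exact counting test. Over all lower sites the median gap to the next was 1208 kb, and 9 of 1236 gaps were under 10 kb.

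**Figure D4:**
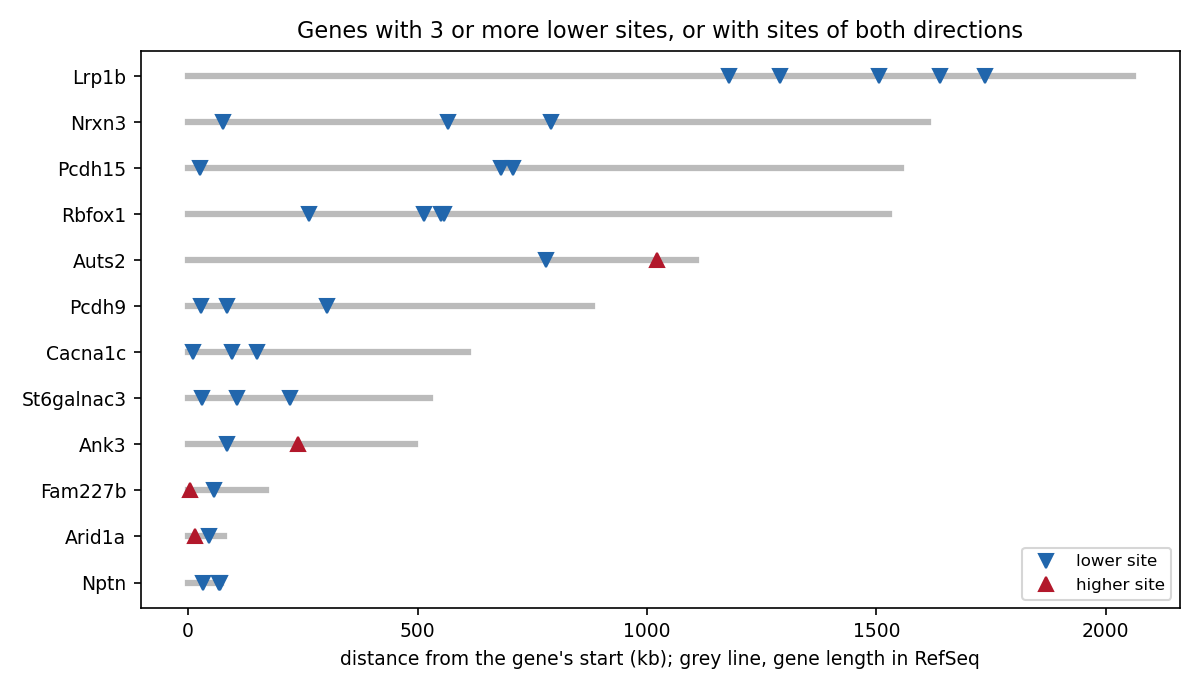
Position of listed sites along the 8 genes with 3 or more lower sites and the 4 genes with a site of each direction, as distance in kb from the start of the gene (horizontal axis). Grey lines give the gene's length in RefSeq, downward triangles lower sites and upward triangles higher sites. The 5 sites of Lrp1b lie between 1178 and 1737 kb from its start.

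Both directions occurred within 4 genes, Ank3, Arid1a, Auts2 and Fam227b. Arid1a encodes a DNA-binding subunit of the SWI/SNF remodeller. At its higher site, 15.336 kb from the start, the libraries held 13.02, 17.38 and 13.21 normalised counts in susceptible mice, against 0.92 and 3.74 in controls. At its lower site, 46.386 kb from the start, they held 1.63, 1.66 and 1.47 in susceptible mice, against 10.09 and 10.68 in controls. The susceptible libraries were alike at both sites, and the groups were apart at both.

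In Ank3 the higher site, 240.08 kb from the start, had 16.28, 9.93 and 13.21 normalised counts in susceptible mice, against 4.59 and 2.14 in controls. The lower site, at 83.63 kb, had 3.26, 3.31 and 1.47 in susceptible mice, against 14.68 and 13.88 in controls. Auts2 encodes a neurodevelopmental nuclear protein of a Polycomb complex. It had a lower site with 1.63, 1.66 and 0 normalised counts in susceptible mice, against 16.52 and 11.75 in controls, and a higher site with 42.32, 10.76 and 33.76 in susceptible mice, against 12.85 and 6.41 in controls. The second susceptible library fell below the first control library at that higher site, so the groups overlapped. Fam227b, a gene of unknown function, had 21.16, 11.59 and 27.89 normalised counts in susceptible mice, against 3.67 and 5.87 in controls, at its higher site, and its groups were apart.

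The 31 higher sites lay in gene bodies at 20, in other intergenic regions at 8 and in gene deserts at 3. The susceptible libraries exceeded both control libraries at 28 of them. They were split at a susceptible mean of 20 after their values were seen. At the 21 sites up to 20, the median counts were 13.02, 10.76 and 13.21 in the susceptible libraries, against 3.67 and 2.67 in the control libraries. The groups were apart at all 21. The index of dispersion between susceptible libraries averages 1 when counting error alone acts. It had a mean of 0.403, a median of 0.187 and a highest value of 3.88. No susceptible value at these 21 sites was below 8.81, and the cut at 20 bounds the mean from above. Both limit the spread, so an index below 1 is not read as agreement between libraries. At the 10 sites above 20, the medians were 56.97, 11.59 and 39.63 in the susceptible libraries, against 9.18 and 6.41 in the control libraries. Susceptible library 2 was the lowest of the 3 at all 10, and the groups were apart at 7. The index of dispersion there had a mean of 16.8, a median of 14.4 and a lowest value of 3.32. Enrichment ratios at these 10 sites, from the authors' deposited table, ran between 0.22 and 0.34 in susceptible mice and between 0 and 0.05 in controls. At the 21 others the ratio ran between 0.38 and 4.68 in susceptible mice and was infinite at 12 in controls, so that over all 31 higher sites it was smaller in susceptible mice at 38.7%, against the direction of the reads.

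Among the 21 sites up to 20, Zeb1, a zinc finger repressor of epithelial genes, had 21.16, 18.21 and 16.15 normalised counts in the susceptible libraries, against 3.67 and 5.87 in the control libraries. Cfap221, a ciliary protein gene, had 9.77, 10.76 and 10.28, against 0 and 2.14 in the control libraries. Pamr1, a secreted peptidase-like protein of muscle regeneration, had 13.02, 14.07 and 11.74, against 0.92 and 4.27 in the control libraries. The lowest susceptible library stood well above the highest control library at each of these genes. Kcnq1, a potassium channel of heart and inner ear, had more unequal libraries, with 26.04, 9.1 and 16.15 normalised counts in the susceptible libraries, against 5.51 and 2.14 in the control libraries. Gphn, the inhibitory synapse scaffold gephyrin, and Cyfip2, a subunit of the WAVE complex that controls actin, were further genes with a higher site. Their sites, with those of Nrg2, Ptprb, Slc36a1 and 2610307P16Rik, were among the 9 higher sites that missed the threshold of 0.0001 in the exact counting test.

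Among the 10 sites above 20, the largest count lay in a gene desert (chr17:4626201-4626450) over the long non-coding RNA gene Gm34259, with 126.96, 9.1 and 74.86 normalised counts in the susceptible libraries, against 4.59 and 6.41 in the control libraries. An intergenic site (chr6:132463651-132463900), with the smallest p among intergenic sites, had 60.23, 9.93 and 26.42, against 3.67 and 4.27 in the control libraries. Acacb, the mitochondrial acetyl-CoA carboxylase that restrains fatty acid oxidation, had 58.6, 10.76 and 54.31, against 15.6 and 5.87 in the control libraries. Libraries 1 and 3 stood well above library 2 at each of these sites, and at Acacb library 2 fell below control library 1. Plxdc2, a transmembrane protein related to plexins, showed the same order, with 55.34, 11.59 and 46.97 normalised counts in the susceptible libraries, against 15.6 and 9.08 in the control libraries. The mean at these sites therefore rests on libraries 1 and 3, and the cause of their difference from library 2 was not tested.

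**Figure D5:**
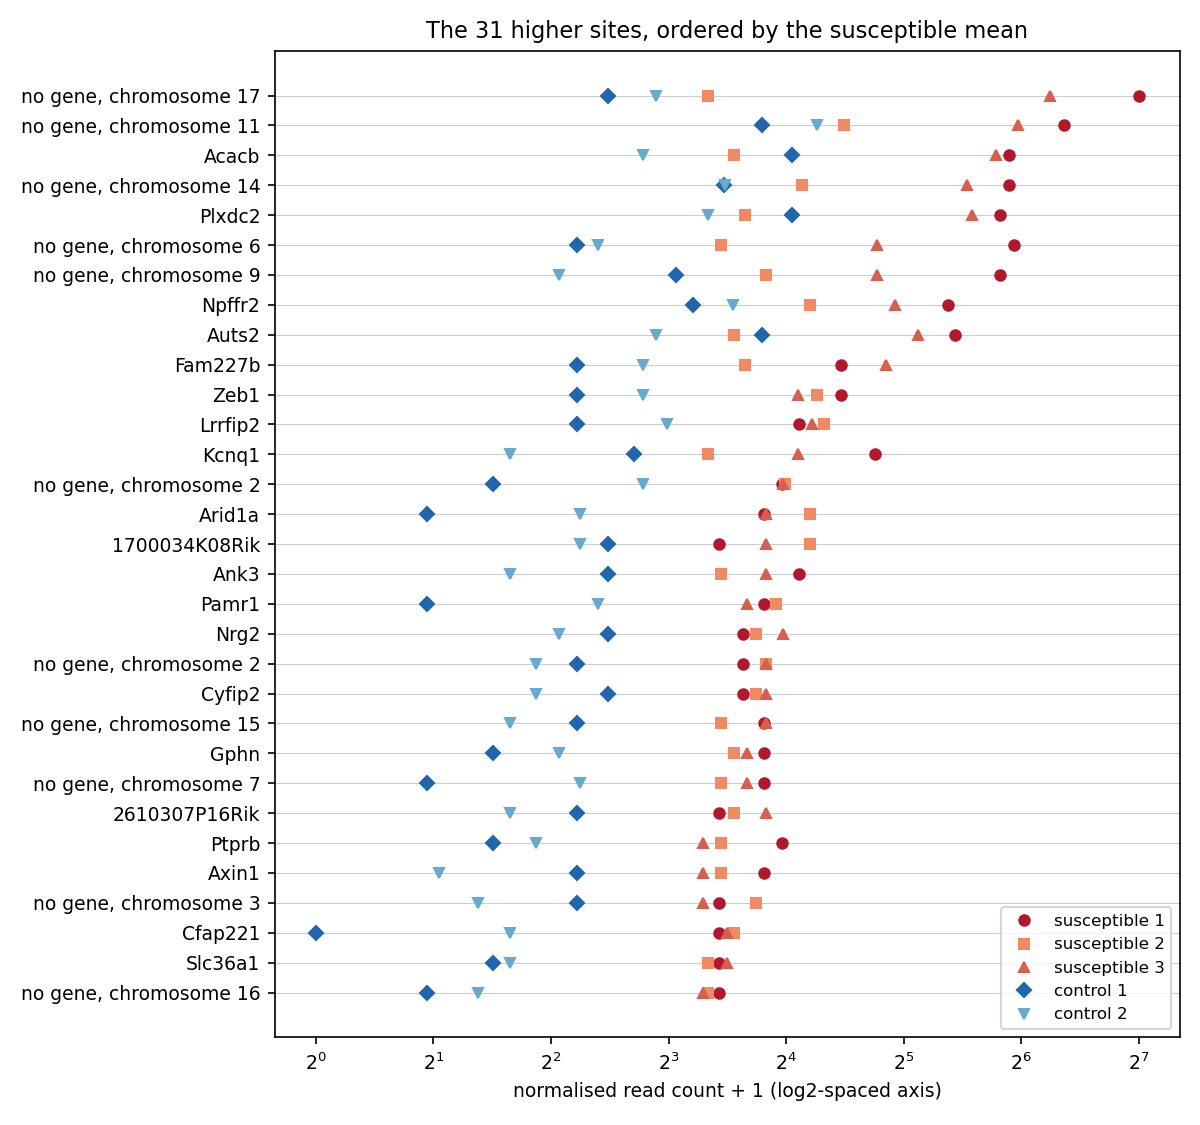
Normalised read count plus 1 (horizontal axis, spaced by log2) in each of the 3 susceptible and 2 control libraries at the 31 higher sites, ordered by the susceptible mean. At the 10 sites at the top, susceptible library 2 lies at the left of libraries 1 and 3, and at the 21 sites below them the 3 susceptible libraries lie closer together, with Kcnq1 the widest.

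Outside genes, the lower sites with the smallest p were an intergenic site (chr3:38333501-38333900) and a pair of gene desert sites. The intergenic site lay 115.36 kb from the nearest protein-coding gene, Ankrd50, and held 0, 3.31 and 1.47 normalised counts in the susceptible libraries, against 15.6 and 14.95 in the control libraries. The first gene desert site (chr16:79279001-79279275) held 1.63, 0 and 0, against 11.01 and 10.68 in the control libraries. The second (chr10:14812226-14812550) held 1.63, 1.66 and 0, against 11.93 and 13.35 in the control libraries. No susceptible library reached a control library at these sites. The 362 intergenic lower sites had a median group mean of 2.14 in susceptible mice, against 11.6 in controls, and the 197 gene desert sites one of 2.13, against 11.5 in controls.

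Some sites that the authors' annotation left without a gene lay over genes in RefSeq. This was so for 79 of the 573 sites, 27 of them over a protein-coding gene and 47 over a long non-coding RNA gene. All 27 were lower sites. The 3 with the smallest p, named after their values were seen, lay over Cntn5, Lsamp and Ank2. Cntn5, an adhesion protein of the contactin family, had 1.63, 3.31 and 1.47 normalised counts in the susceptible libraries, against 13.76 and 14.41 in the control libraries. Lsamp, an adhesion protein of limbic neurons, had 1.63, 3.31 and 1.47, against 14.68 and 13.88 in the control libraries. Ank2, the ankyrin B gene, had 0, 3.31 and 1.47, against 13.76 and 12.28 in the control libraries. The groups were apart at each. Lsamp, Ank2, Wdr49 and Tenm3 each held 2 such sites, which the gene counts above, taken from the authors' annotation, do not include.

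The list of sites for acute stress used the same control libraries. The lists had 18 sites with identical coordinates, and at 18 of these the reads of both control libraries were identical. Because they share controls, values of both comparisons are set side by side only, and the lists were normalised separately. At a site without a gene on chromosome 1 (start 50381251), the susceptible comparison gave 4.88, 2.48 and 1.47 normalised counts, against 18.35 and 15.48 in the control libraries, and the acute comparison gave 5.7 and 1.43, against 19.47 and 18.4 in the control libraries. In Lrp1b, at the first of its sites by p, the susceptible comparison gave 1.63, 1.66 and 5.87, against 16.52 and 14.95 in the control libraries, and the acute comparison gave 1.9 and 7.15, against 18.39 and 17.74 in the control libraries. Each was listed as lower in both comparisons. At a site without a gene on chromosome 2 (start 169422151), the susceptible comparison gave 1.63, 2.48 and 1.47, against 14.68 and 13.35 in the control libraries, and the acute comparison gave 3.8 and 4.29, against 17.3 and 16.43 in the control libraries. At another on chromosome 6 (start 103110326), the susceptible comparison gave 3.26, 0 and 2.94, against 13.76 and 11.75 in the control libraries, and the acute comparison gave 0.95 and 4.29, against 16.22 and 14.45 in the control libraries. These were also lower in both. Over all sites, the acute list held 473 lower and 541 higher sites, and the susceptible list 1255 and 31.

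The last lower sites by p were those of Elmod1 and Pard3b. Elmod1, a GTPase-activating protein for Arf proteins, had 0, 4.14 and 0 normalised counts in the susceptible libraries, against 14.68 and 10.14 in the control libraries. Pard3b, a cell polarity gene, had 6.51, 0.83 and 1.47, against 11.93 and 10.68 in the control libraries. The last site of all was a higher one in a gene desert on chromosome 2, with 14.65, 14.9 and 14.68 normalised counts in the susceptible libraries, against 1.84 and 5.87 in the control libraries. The authors' deposited table gives it p = 9.32e-05. Sites above the threshold of 0.0001 were not analysed here.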

How the data were processed

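H3.3 ChIP libraries of the nucleus accumbens were compared between susceptible re-exposed and control mice. Per the submitters' processing notes, Bowtie2 2.2.0, SAMtools 0.1.19 and the build mm10 were used. The deposited tables carry diffReps, 250-bp windows and a p threshold of 0.0001 in their names. For diffReps, the version, test, normalisation and read filter are not stated there. Each count cell, as deposited, joins the normalised read counts of the libraries of a group. Per the file headers, the averages are mean coverage signal by group and the enrichment is a ratio by group whose denominator is not stated. The log2 fold change of susceptible over control and each site's p-value, raw and adjusted, are the authors' deposited values.

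From these, reads were recovered by dividing each value by the value of 1 read in its library, which gave whole reads for 99.9% to 100% of values within a tolerance of 0.011. The planned design was kept: the authors' p decided listing, and direction was the susceptible against the control average. An exact two-sided binomial test of the susceptible reads, given the relative depths, and exact Clopper-Pearson 95% intervals cover counting error only. Reads that are PCR copies are not independent molecules. The test was run on simulated reads that held counting error only. That simulation had no differences between libraries and no choice of sites by p, so it does not cover either. Of 635 gene names 632 matched RefSeq, and of 636 gene body sites 626 lay inside the named gene. Sites were joined to promoter windows by an overlap of at least 1 bp. Windows on chromosome 18 were not used here, which leaves 1213 lower sites. Per-sample columns of no known sample numbered 0. Analyses used Python 3.11.15, numpy 2.4.6, pandas 2.3.3 and scipy 1.17.1.

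Named were the 10 genic lower, 8 genic higher and 10 promoter sites with the smallest p, all proximal promoters, genes with 3 or more lower sites or with both directions, up to 4 members per gene list, 3 intergenic and 3 desert sites, the 3 lower sites with the largest control means and the 3 higher sites with the largest susceptible means. The other list members are given by name only, and a few genes and 1 gene list that the rule names are not reported here. The sites, gene lists and promoters were chosen with earlier results of these data known.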

Additional observations from a re-analysis of the deposited data

How the results depend on the processing

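The counts fell with a stricter threshold, and lower sites made up between 91.6% and 99% of the sites kept under every alternative. Each alternative drew only on the same list, in which 97.6% of sites were lower. These shares therefore largely follow from the listing and do not test the direction. At a deposited p under 1e-05 there were 260 lower sites, 11 higher sites, 17 lower promoter sites, 4 genes with 2 or more lower sites and 260 separated lower sites. At a deposited adjusted p under 0.001 these were 87, 8, 7, 0 and 87. With at least 40 reads over the 5 libraries, 685 lower sites, 25 genes with 2 or more lower sites and 685 separated lower sites were left. A deposited enrichment ratio of at least 1 in the higher group left 10 higher sites and 37 genes with 2 or more lower sites. The exact counting test left 1063 lower and 22 higher sites. Without 1 library at a time, the exact counting test called between 158 and 435 lower sites, between 6 and 14 higher sites, between 7 and 25 lower promoter sites and between 1 and 11 genes with 2 or more lower sites. Leaving out a library takes away reads at every site. The count of separated sites stays at 1255 by construction and says nothing about stability. No paired analysis was possible because the count cells do not name their libraries. No spread between animals can be given, since 5 were pooled per library.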
